A study of Mus musculus with 111 samples.

Results

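The sarcomeric myosin heavy chains described here are 6 mouse genes, Myh4, Myh1, Myh2, Myh7, Myh3 and Myh8, measured in gastrocnemius muscle in a comparison of disuse by hindlimb casting with disuse by cutting the Achilles tendon (tenotomy). A probe set was taken when its only platform gene symbol was one of the 6, and where a gene had several the brightest on average was used. The genes had 9 such probe sets among the 45101 on the array, and all 6 were among the 16029 genes tested, of 18194 genes with a probe set naming a single gene. The probe sets used were 1427026_at for Myh4, 1427868_x_at for Myh1, 1425153_at for Myh2, 1448553_at for Myh7, 1427115_at for Myh3 and 1426650_at for Myh8. Each was brighter than its array's 40th percentile on all 111 arrays, except Myh3 (110 arrays) and Myh8 (104 arrays).

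Myosin heavy chain is the motor protein of the thick filament, and its isoform sets how fast a muscle fibre contracts and how much ATP it spends. Adult mouse limb fibres are typed by the isoform they hold, which is Myh4 in the fastest IIb fibres, Myh1 in IIx, Myh2 in the more oxidative IIa and Myh7 in slow type I fibres, and the mouse gastrocnemius is mostly fast. Myh3 (embryonic) and Myh8 (perinatal) are made in developing muscle and are used as marks of regenerating or immature fibres. Innervation, load and calcium signalling through calcineurin shift the isoforms in both directions.

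All mice were male C57BL/6 animals, 8 weeks old per the study's text, and 70 animals gave 111 arrays, 1 per muscle. In casting animals the cast right leg (10, 7 and 9 arrays at day 2, 7 and 14) was set against the uncast left leg (9, 8 and 9 arrays). In tenotomy animals the sample labels give the operation to the left leg (5, 7 and 5 arrays) and call the right leg the control (5, 7 and 5 arrays). Sham animals, whose tendon was exposed and handled but not cut, gave 3, 7 and 8 arrays at the same days, and naive animals without any treatment gave 7. The study's text, unlike the labels, says that the right tendon was cut, so that the legs are called left and right below, and each is also set against sham. Summed signals of 12 macrophage markers had medians of 1359, 1420 and 1087 at day 2, 7 and 14 in left legs, against 14300, 4809 and 3134 in right legs, 1943, 1848 and 2000 in sham and 1713 in naive muscle, so that the higher macrophage signal lay in the legs labelled as controls. Leg side goes with treatment in both models, and the animals of casting, tenotomy, and sham and naive muscle are numbered separately, so that cohort and model cannot be told apart.

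The 5 genes Myh3, Myh2, Myh1, Myh4 and Myh8 lie next to each other in this order on chromosome 11, and Myh7 lies alone on chromosome 14. The promoters below are shown because the 4 fast and perinatal genes carry the same 14 bases near the start site. Across the arrays 3 of these 4 genes moved together and Myh8 did not. A part of the shared bases in this was not tested. RefSeq promoters (build GRCm38.p6, 250 bases before to 50 after each start) were found for all 6 genes. The longest run shared by the promoters of Myh4, Myh1, Myh2 and Myh8 was searched for, and then that shared by Myh4, Myh1 and Myh8. The presence of each run in the promoters it was taken from was thus fixed by the search. The run TTCTAATTATATCC, in capitals in the first 4 lines, was found in 4 of 32851 promoters (0.0122%), which are these 4. A second run, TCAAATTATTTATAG, was found in the promoters of Myh4, Myh1 and Myh8, and it holds a match to the MEF2 motif, the binding motif of a muscle transcription factor family, which 3.19% of all promoters hold on either strand. The last 2 lines give the promoters of Myh7, of which the first of 2 RefSeq entries is shown, and Myh3, which have neither run. TATAAA is in capitals in Myh3 and was not found in the Myh7 window.
Myh4, chr11:67237604-67237673, plus strand, 158 to 145 bases before the start: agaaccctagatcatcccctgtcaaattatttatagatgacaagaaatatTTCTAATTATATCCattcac
Myh1, chr11:67199892-67199961, plus strand, 160 to 147 bases before the start: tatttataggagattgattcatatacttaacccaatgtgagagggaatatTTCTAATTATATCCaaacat
Myh2, chr11:67170852-67170921, plus strand, 125 to 112 bases before the start: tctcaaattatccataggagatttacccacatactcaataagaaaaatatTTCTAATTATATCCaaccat
Myh8, chr11:67277020-67277089, plus strand, 54 to 41 bases before the start: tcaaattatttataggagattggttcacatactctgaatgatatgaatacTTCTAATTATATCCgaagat
Myh7, chr14:54994577-54994876, minus strand: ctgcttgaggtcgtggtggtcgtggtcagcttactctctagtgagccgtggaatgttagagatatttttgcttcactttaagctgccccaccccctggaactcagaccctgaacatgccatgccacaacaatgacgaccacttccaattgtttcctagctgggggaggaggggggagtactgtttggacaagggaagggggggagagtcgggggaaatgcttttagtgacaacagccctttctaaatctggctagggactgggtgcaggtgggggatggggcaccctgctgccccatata
Myh3, chr11:67078050-67078349, plus strand: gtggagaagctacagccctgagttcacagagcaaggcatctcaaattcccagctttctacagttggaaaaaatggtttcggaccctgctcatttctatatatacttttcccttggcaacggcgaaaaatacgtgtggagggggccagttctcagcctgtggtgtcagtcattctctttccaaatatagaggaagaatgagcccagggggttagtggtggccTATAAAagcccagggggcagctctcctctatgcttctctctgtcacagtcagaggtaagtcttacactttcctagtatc
TATAAA was found in 13.6% of all promoters, searched on both strands, and in Myh3 it begins 29 bases before the start. It begins 32 bases before the start in Myh1 and 31 before it in Myh4, and 11 bases after the annotated start in Myh2. On the minus strand it overlaps the MEF2 match in Myh4, Myh1 and Myh8. The E-box CANNTG, the motif of the myogenic regulators, was found in 72.3% of promoters. Matches describe the letters in these windows and are not binding sites.

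Each gene's signals are linear array intensities, and levels can be compared only within a gene, since probe sets differ in brightness. Signals of left and right legs listed apart are in no shared order of animals, unless they are said to be of the same animals. Differences are log2 differences of group means from limma with the animal as a random block, and a gene is called when its adjusted p is under 0.05 after Benjamini-Hochberg adjustment over all genes tested in that comparison. Across all arrays Myh4 ran between 4044 and 27000, Myh1 between 5055 and 14700 and Myh2 between 3320 and 18100. Myh7 ran between 39.86 and 6068, Myh3 between 10.39 and 1046 and Myh8 between 4.782 and 290.4. The 16 group means spanned 5.23 on the log2 scale for Myh7, 2.79 for Myh3, 2.57 for Myh8, 1.43 for Myh4, 1.42 for Myh2 and 0.69 for Myh1. With groups ordered by mean, few of the 15 gaps between neighbours exceeded the larger SD of the pair, 1 for each of Myh4, Myh7 and Myh3 and 0 for Myh1, Myh2 and Myh8. As the tissue label has it, the summed signal of 8 muscle fibre markers lay between 34920 and 161900 on every array. Of 6 heart markers, Nppa and Myl7 passed their array's 40th percentile on 8 of 111 arrays each, Tbx5 on 19, Nppb on 23, Myh6 on 44 and Tnni3 on 55, with group median signals of at most 17.84.

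**Figure D1:**
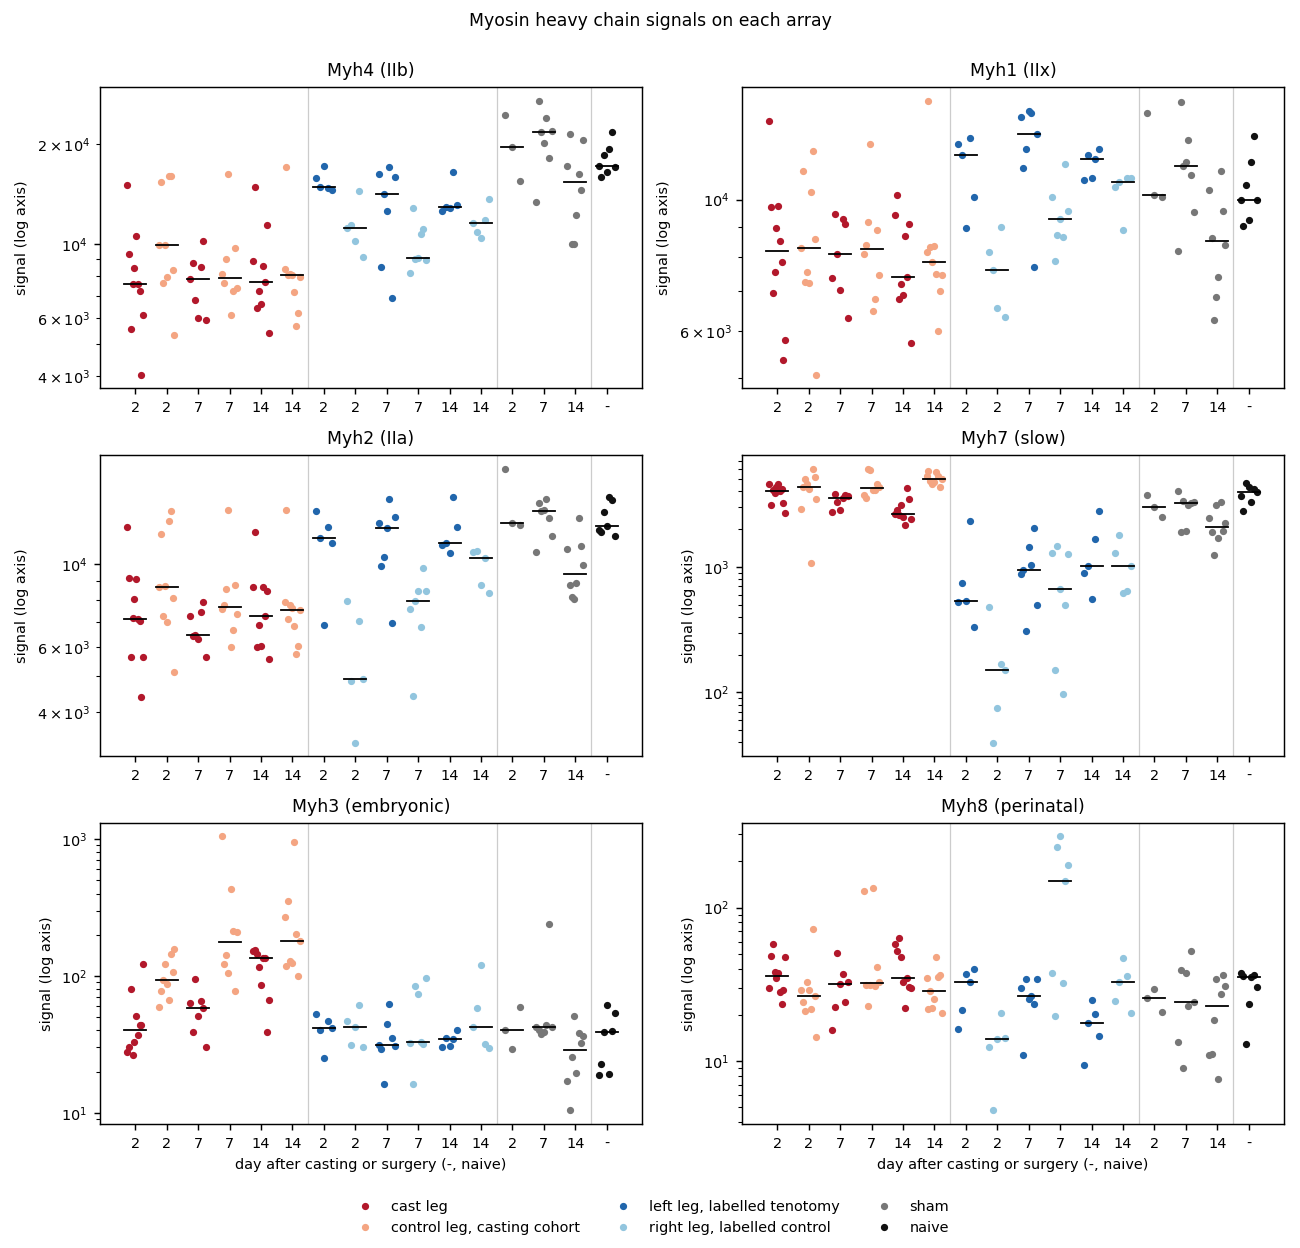
Signal of each myosin heavy chain (log axis) on every array by day after casting or surgery, with a point per array and a line at the group median. Myh7 lay at 39.86 to 477.7 in right legs of tenotomy animals at day 2, the lowest group, and Myh8 reached 290.4 in right legs at day 7.

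Between the legs of casting animals the count of called genes was 1, 1 and 2 of 6 at day 2, 7 and 14, all lower in the cast leg, while 24.3%, 8.78% and 13.3% of all genes tested were called. Between left and right legs of tenotomy animals it was 4, 3 and 0 of 6, against 36.8%, 33% and 23.2% of all genes. Of these, 4 were higher in left legs at day 2, and 2 were higher and 1 lower at day 7. The median difference over the 6 genes was 0.77, 0.35 and 0.18 on the log2 scale for left minus right, and -0.16, -0.34 and -0.03 for cast minus control, where the median over all genes lay between -0.03 and 0.04. Right legs against sham gave 4, 4 and 1 called genes at background shares of 35.1%, 41.3% and 36%, and left legs against sham gave 1, 2 and 1 at 10.1%, 19.2% and 20.8%. Sham against naive muscle gave 0 of 6 at each day, where 0%, 0.63% and 2.23% of all genes were called by limma, and at day 2 the share of 0% went with 1120 genes at an unadjusted p under 0.05.

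**Figure D2:**
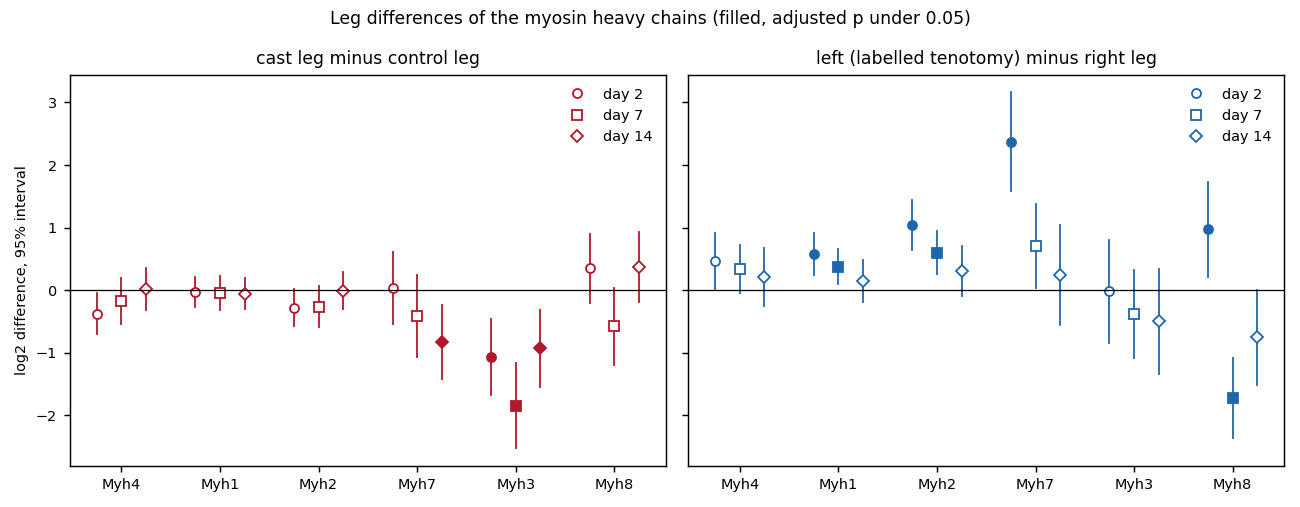
Log2 difference between legs for each myosin heavy chain, cast minus control leg (left panel) and left minus right leg of tenotomy animals (right panel), with 95% intervals and filled symbols where the adjusted p was under 0.05. Myh3 lay below 0 at all 3 days of casting, and Myh7 had the largest difference between tenotomy legs, 2.37 at day 2.

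The fast isoforms Myh4, Myh1 and Myh2 moved with the brightest signals of each array, and their values depend on how arrays are scaled. Over 111 arrays, Pearson's r with the log2 signal that the brightest 0.1% of an array's probe sets exceed was 0.983 for Myh4, 0.835 for Myh1 and 0.831 for Myh2, against -0.209 for Myh7, -0.488 for Myh3 and -0.213 for Myh8. That signal had medians of 6651, 6315 and 6342 in cast legs, 7155, 6576 and 6790 in their control legs, 10390, 11200 and 9979 in left legs, 7738, 7824 and 8806 in right legs, 12600, 12790 and 10040 in sham and 11100 in naive muscle. Myh4, Myh1 and Myh2 are themselves among the brightest probe sets, so that it is not independent of them. With quantile normalization, which gives every array the same distribution, Myh1 was 0.50, 0.51 and 0.42 higher in cast legs than in naive muscle and Myh2 0.03 higher at day 2 and 0.07 higher at day 14, where the deposited scale had them lower. Under the same scaling the right legs' Myh1 differed from naive muscle by 0.02, 0.35 and 0.32, and its left minus right difference was 0.13 at day 2 and 0.04 at day 7, no longer called. The leg difference of Myh2 at day 2 stayed called (0.62, adjusted p = 9.58e-06).

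Myh4, the IIb chain, was lower in both legs of casting animals than in naive muscle on the deposited scale. It had signals of 4044, 7588 and 15100 (lowest, median and highest) in cast legs at day 2, against 5336, 9916 and 16000 in control legs. At day 7 the cast legs ran 5892, 7849 and 10200, against 6099, 7892 and 16300 in control legs. At day 14 they ran 5385, 7669 and 14900, against 5656, 8051 and 17000 in control legs. Cast and control legs overlapped at every day, and both lay low beside naive muscle, where Myh4 ran 15900, 17200 and 21800. Cast minus control was -0.38 ± 0.17 (log2 difference ± SE) with an adjusted p of 0.0914 at day 2, -0.17 (0.702) at day 7 and 0.01 (0.974) at day 14. Against naive muscle the cast legs were 2.33-fold, 2.36-fold and 2.19-fold lower (adjusted p from limma of 3.59e-08, 4.35e-07 and 7.03e-07), and the uncast control legs 1.8-fold, 2.09-fold and 2.21-fold lower (0.000269, 1.2e-05 and 9.53e-07). With quantile normalization these differences kept their sign and shrank to -0.23, -0.18 and -0.16 on the log2 scale in cast legs (all called) and to -0.08, -0.14 and -0.16 in control legs (called at day 14 alone).

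In tenotomy animals Myh4 was lower in the right than in the left leg at day 2 in every animal. The left and right legs of each animal had 14900 and 14400, 15800 and 9134, and 17200 and 11200 at day 2. The other animals had 14700 and 10200, and 14500 and 11400. On the same day 3 sham muscles had 24500, 19600 and 15500. The lowest left leg lay just above the highest right leg, and every right leg lay under the lowest sham muscle. The log2 difference of left minus right legs, 0.47 ± 0.23 with an adjusted p of 0.104, did not pass the threshold and was -0.03 with quantile normalization. At day 7 left legs ran 6894, 14100 and 17000, right legs 8165, 9111 and 12800, and sham 13400, 21800 and 27000. At day 14 left legs had 12600, 12900, 12800, 16500 and 13100, against 11600, 10900, 10400, 11800 and 13700 in right legs. Right legs were 1.75-fold and 2.07-fold lower than sham at day 2 and day 7 (adjusted p of 0.0154 and 7.76e-06) and did not pass at day 14 (-0.33, 0.241), and with quantile normalization the day 2 difference was no longer called (-0.04, adjusted p = 0.719). Left legs passed against sham at day 7 alone, 1.65-fold lower (0.00602).

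Myh2, the IIa chain, gave the largest leg differences of the fast isoforms after tenotomy. The left and right legs of each animal had 11800 and 7028, 13900 and 4917, and 6884 and 7971 at day 2. The other animals had 12600 and 3320, and 11400 and 4874. Sham muscles had 18100, 12900 and 12800 on that day. A single left leg, at 6884, fell within the range of the right legs and below its own right leg at 7971 (-0.211). All other left legs lay above that range. Left minus right was 1.04 ± 0.2 at day 2 (adjusted p = 9.93e-06) and 0.6 ± 0.17 at day 7 (0.00321), and 0.31 ± 0.2 at day 14 (0.306). At day 7 the left legs ran 6966, 12500 and 15000, against 4432, 7969 and 9767 in right legs and 10800, 13900 and 15000 in sham. Right legs were 2.68-fold lower than sham at day 2 (adjusted p = 8.84e-07) and 1.78-fold lower at day 7 (5.57e-05, not called with quantile normalization), and at day 14 the difference was 0.01 (0.99). Left legs did not pass against sham at any day, with differences of -0.39, -0.23 and 0.31.

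In casting animals Myh2 ran 4394, 7150 and 12600 in cast legs at day 2, against 5142, 8715 and 13900 in control legs. The legs overlapped at day 7 and 14 as well, with cast medians of 6451 and 7247 against control medians of 7692.5 and 7541. Cast minus control was -0.28 (adjusted p = 0.172), -0.26 (0.41) and -0.01 (0.982). Both legs were called lower than naive muscle, where Myh2 ran 11900, 12700 and 15200, with log2 differences of -0.86, -0.97 and -0.81 in cast legs and -0.58, -0.71 and -0.8 in control legs, but with quantile normalization those of the control legs turned to 0.10, 0.10 and 0.06 and those of the cast legs were 0.03, -0.06 and 0.07.

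Myh1, the IIx chain, varied least of the 6 genes. It had 12400, 11900, 8952, 12700 and 10100 in left legs of tenotomy animals at day 2, against 8150, 7616, 6554, 8997 and 6333 in right legs, with a sliver of overlap between the lowest left and the highest right leg. At day 7 the left legs ran 7690, 12900 and 14100, against 7868, 9267 and 11500 in right legs. On the deposited scale left minus right was 0.57 ± 0.17 (adjusted p = 0.00354) at day 2, 0.37 ± 0.14 (0.0324) at day 7 and 0.15 (0.586) at day 14. Right legs were 1.51-fold lower than sham at day 2 (0.0146, not called with quantile normalization), where sham muscles had 14000, 10200 and 10100. At day 14 left legs had 10800, 11900, 10900, 11700 and 12200 and were 1.36-fold higher than sham, which ran 6264, 8495.5 and 11200 (adjusted p = 0.0321). That call was lost in 3 of 5 cases of leaving out 1 array and kept in 10 of 12 other settings. The mean of these left legs lay 0.144 above that of naive muscle on the log2 scale, which was not called. On the deposited scale cast and control legs differed by -0.03, -0.05 and -0.05 (adjusted p of 0.898, 0.904 and 0.834). The 95% intervals there lay within -0.32 and 0.22 over the 3 days. With quantile normalization the day 2 difference was 0.223 and was called (adjusted p from limma of 0.004). A dim Myh1 probe set also gave positive values for cast minus control legs (0.58 to 0.86). Cast legs were called lower than naive muscle at each day (-0.36, -0.38 and -0.41 on the log2 scale), and control legs only at day 14 (-0.36, adjusted p = 0.0462), all of which turned positive with quantile normalization.

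A list of 8 muscle fibre markers, some of them fast fibre genes, was lower with the fast isoforms on the deposited scale. With quantile normalization at most 2 of the 8 were called lower in any casting group. Summed over the list (Acta1, Ckm, Mb, Ttn, Neb, Actn3, Pygm and Mylpf), signals had medians of 59080, 57760 and 57530 in cast legs and 67120, 59300 and 60380 in their control legs at day 2, 7 and 14. In tenotomy animals they were 102500, 107000 and 97220 in left and 70840, 72130 and 84780 in right legs, and they were 130200, 140200 and 101300 in sham and 111800 in naive muscle. The test called 8, 7 and 8 of the 8 lower in cast legs than in naive muscle, and 7, 7 and 8 in the control legs, but with quantile normalization it called 2, 1 and 1 lower and 1, 2 and 1 higher in cast legs and 0, 0 and 2 lower and 1, 0 and 0 higher in control legs. On the deposited scale 35.3%, 30.1% and 36.7% of all genes were called in cast legs and 27.9%, 23.1% and 27.5% in control legs. In a bulk sample fewer fibres and less RNA per fibre cannot be told apart. Their part in the fast isoforms' differences was not tested.

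**Figure D3:**
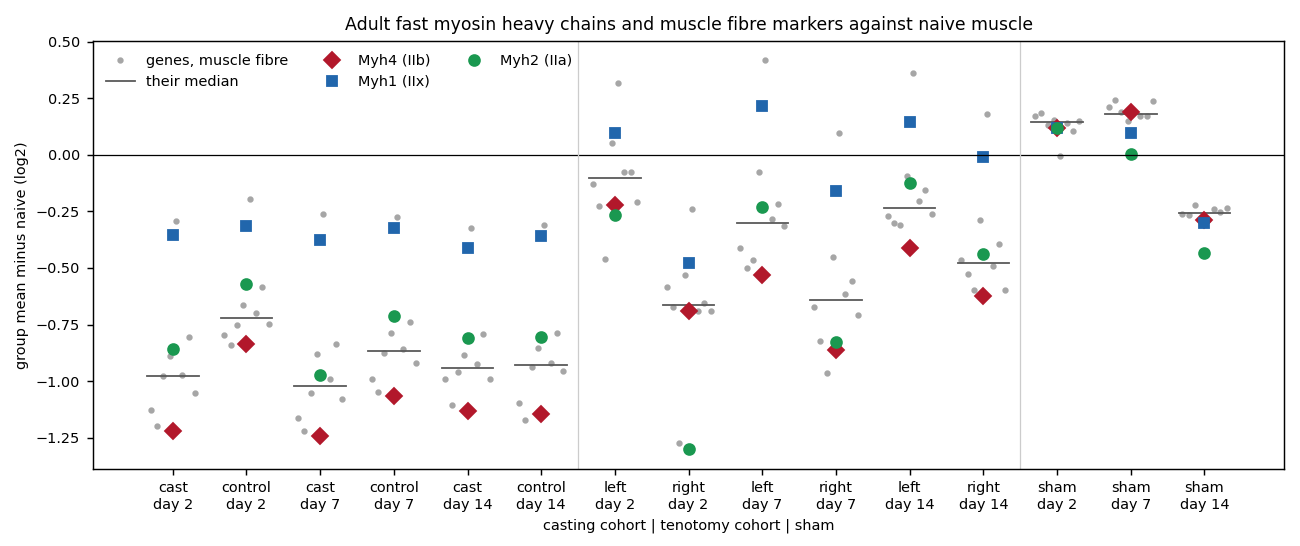
Group mean minus naive mean (log2) for Myh4, Myh1 and Myh2 and for 8 muscle fibre markers (grey points, with a line at their median), by group and day. In casting animals both legs lay below 0 for all 3 genes, with Myh4 lowest at -0.84 to -1.24 and Myh1 nearest to 0, and sham lay close to naive at day 2 and 7. These are differences on the deposited scale, and with quantile normalization Myh1 in both casting legs (0.28 to 0.51) and Myh2 in the control legs (0.06 to 0.10) lay above 0.

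Other fast sarcomere genes were read with the fast isoforms, as 15 genes for thin filament, calcium handling and thick filament proteins of fast fibres. Of all genes, 8.78% to 24.3% were called between casting legs and 23.1% to 36.7% in these legs against naive muscle. The share was 36.8% between tenotomy legs at day 2. Against sham it was 35.1% to 41.3% in right legs and 10.1% to 20.8% in left legs. Between casting legs 0, 0 and 0 were higher and 1, 1 and 0 lower in the cast leg, and Mybph, a myosin-binding protein, was the one at day 2 (-1.65, adjusted p = 1.95e-05). Against naive muscle 14 of 15 were lower in cast legs at each day and 14 of 15 in control legs at each day, with medians of -0.98, -1.08 and -0.98 in cast legs and -0.73, -0.91 and -0.93 in control legs, where the median over all genes was between 0.06 and 0.11. With quantile normalization 6, 5 and 5 were lower in cast legs and 2, 5 and 5 in control legs, and 0, 2 and 1 and 0, 1 and 1 were higher, with medians between -0.06 and -0.02. At day 2 of tenotomy 10 of 15 were higher in left than in right legs, with a median of 0.54 (4 of 15 and 0.04 with quantile normalization). Casq1, the calcium store protein of fast fibres, differed by 0.82 and Actn3, a fast fibre crosslinker of actin, by 0.61. Right legs had 13 of 15 below sham at day 2 and 13 of 15 at day 7 (medians of -0.81 and -0.81), and 1 higher and 1 lower at day 14. Left legs had 0, 7 and 0 of 15 below sham.

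Myh7, the slow type I chain, had the largest differences of the family, and they lay in the tenotomy cohort. At day 2 the animals' left and right legs had 739.3 and 168.3, 526.4 and 152.2, 536.4 and 477.7, 2325 and 75.35, and 333.3 and 39.86. Sham muscles had 3747, 2981 and 2504 on that day, and naive muscle ran 2794, 3934 and 4658. Every left leg lay above its own right leg, though the groups overlapped through the right leg at 477.7, and every leg of the tenotomy animals lay below every sham and naive muscle. The left legs exceeded the right legs by 2.37 ± 0.4 (95% interval 1.58 to 3.16, adjusted p = 4.03e-07) on the log2 scale, or 5.18-fold. Against sham, right legs were 22.5-fold lower (-4.49 ± 0.48, adjusted p = 2.51e-13) and left legs 4.35-fold lower (-2.12 ± 0.48, 0.00134).

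The gap narrowed later in both legs. At day 7 left legs ran 311, 949.9 and 2053, against 97.71, 669.5 and 1470 in right legs and 1904, 3251 and 4026 in sham, so that the legs overlapped widely and only the highest left leg reached the sham range. The difference of left minus right was 0.71 ± 0.34 (adjusted p = 0.0982). Left legs were 3.29-fold (0.000124) and right legs 5.37-fold (8.55e-09) lower than sham. At day 14 left legs had 887.4, 1014, 556.5, 1674 and 2787, against 1299, 1794, 616.2, 640.4 and 1016 in right legs and a sham range of 1246, 2073.5 and 3267. Left legs differed from sham by -0.86 ± 0.38 (adjusted p = 0.0975), and right legs were 2.14-fold lower (-1.1 ± 0.38, 0.0156). Against naive muscle both legs were called lower at every day, with log2 differences of -2.43, -2.11 and -1.68 in left and -4.8, -2.81 and -1.92 in right legs. The tenotomy leg difference at day 14 minus that at day 2 was -2.13 ± 0.57 (adjusted p = 0.00747).

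**Figure D4:**
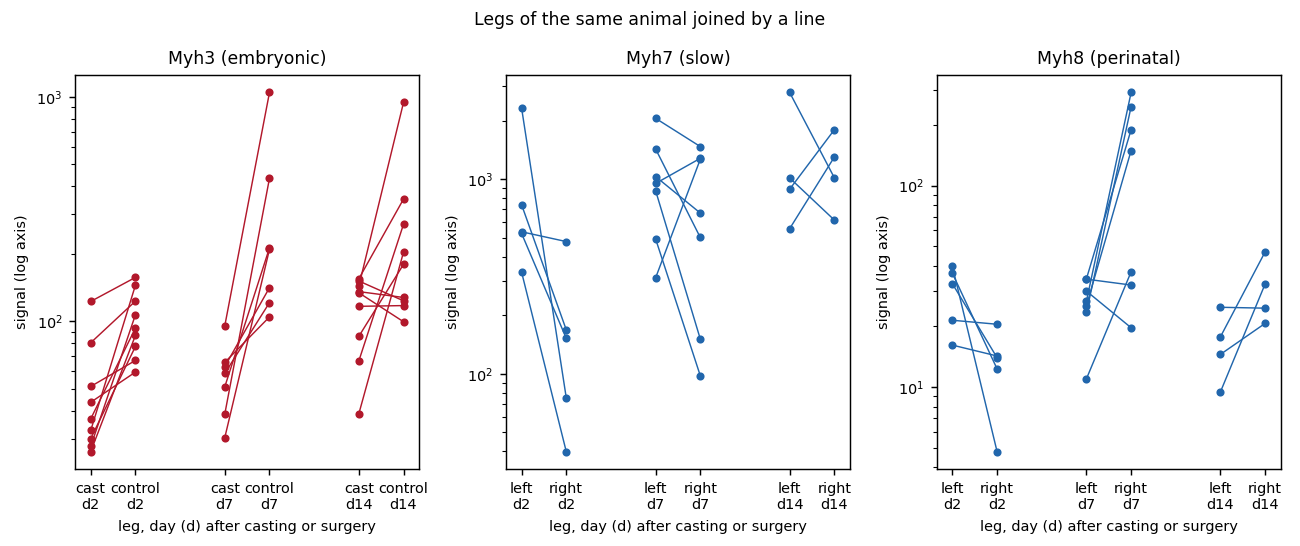
Signals (log axis) of Myh3 in the cast and control legs, and of Myh7 and Myh8 in the left and right legs, with the legs of 1 animal joined by a line. Myh3 was lower in the cast leg in 9 of 9 and 7 of 7 pairs at day 2 and 7, Myh7 was higher in the left leg in 5 of 5 pairs at day 2, and Myh8 was lower in the left leg in 5 of 7 pairs at day 7.

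After casting Myh7 stayed near the naive level in both legs, though some other settings called the day 14 groups. It ran 2670, 4036.5 and 4558 in cast legs at day 2, against 1070, 4319 and 6068 in control legs, where the 1070 belonged to an animal whose cast leg had 4533. At day 7 it ran 2730, 3536 and 3816 in cast and 3565, 4244 and 6004 in control legs. At day 14 it ran 2154, 2634 and 4246 in cast legs, against 4356, 5016 and 5796 in control legs, with no overlap and 9 of 9 pairs lower in the cast leg. Cast minus control was 0.03 ± 0.29 (adjusted p = 0.964) at day 2, -0.41 ± 0.33 (0.551) at day 7 and -0.83 ± 0.3 (0.0468) at day 14. Without that control leg the day 2 difference was -0.2 (0.724). The call at day 14 sat at the edge of the threshold and was lost under several other settings, with an adjusted p of 0.0781 when the animal was a fixed block. Against naive muscle no casting group was called, with cast legs at 0.01, -0.17 and -0.41 and control legs at -0.02, 0.24 and 0.42. At day 14 this held in 11 of 13 other settings for control legs, with differences of 0.398 to 0.88. The lowest adjusted p from limma there was 0.00105. For cast legs at day 14 it held in 12 of 13, with -0.415 to -0.017 and a lowest adjusted p of 0.0123.

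Genes for other slow fibre proteins were lower with Myh7, as a list of 15. Against sham, 35.1%, 41.3% and 36% of all genes were called in right legs and 10.1%, 19.2% and 20.8% in left legs. Between left and right legs the shares were 36.8%, 33% and 23.2%. In right legs 10, 14 and 7 of 15 were below sham and 0, 1 and 3 above it at day 2, 7 and 14, with medians of -1.37, -2 and -0.76. Myl2, the slow regulatory light chain, had a mean signal of 219.9 in right legs at day 2, against 5152 in sham (-4.58, adjusted p = 1.94e-23). Tpm3, a slow tropomyosin, had 131 against 2304 (-4.33, 4.94e-14), and Tnnc1, the slow troponin C, 211 against 3116 (-4.07, 2.16e-14). In left legs 8, 9 and 6 of 15 were below sham and 0, 0 and 2 above it, with medians of -0.83, -1.17 and -0.6, and Tpm3 had 318.9 in left legs at day 2 (-3.24 against sham). With quantile normalization 9, 14 and 7 of 15 were below sham in right legs and 7, 9 and 6 in left legs. Left legs exceeded right legs for 6, 9 and 2 of 15, led at day 2 by Myl2 (3.01, adjusted p = 2.2e-18) and the essential light chain Myl3 (1.82).

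**Figure D5:**
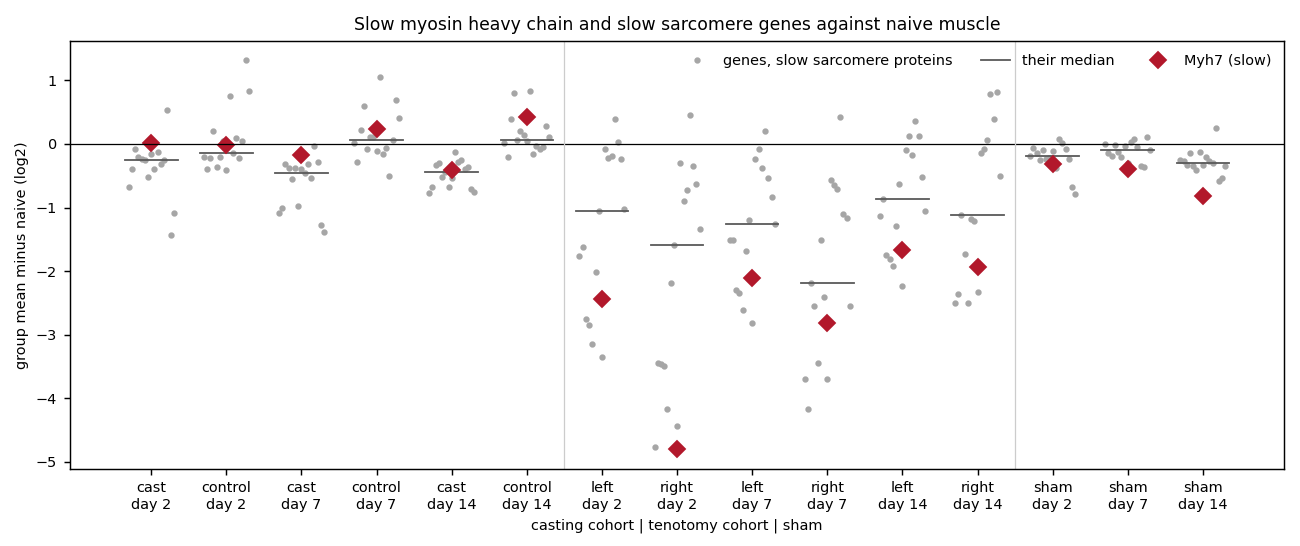
Group mean minus naive mean (log2) for Myh7 (diamonds) and for 15 slow sarcomere genes (grey points, with a line at their median), by group and day. Myh7 lay at -4.8 in right legs at day 2 and at -1.93 at day 14, and between -0.41 and 0.42 in the casting legs.

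Between the legs of casting animals 5, 8 and 7 of the 15 slow genes were lower and 1, 0 and 0 higher in the cast leg, with medians of -0.06, -0.53 and -0.65. Over all genes, 24.3%, 8.78% and 13.3% were called between these legs. Against naive muscle, 35.3%, 30.1% and 36.7% of all genes were called in cast legs and 27.9%, 23.1% and 27.5% in control legs. The members with the largest differences between casting legs at day 2 were Csrp3 (-2.74, adjusted p = 5.66e-12) and Ankrd2 (-1.93), stretch-responsive proteins of the Z-disc and titin filament, and Casq2 (-1.16), the calcium store protein of slow fibres. At day 14 Tnni1, the slow troponin I, had a mean signal of 1116 in cast legs, against 2325 in control legs (-1.1, adjusted p = 0.0022). Against naive muscle the cast legs had 5, 7 and 4 of 15 lower and the control legs 0, 0 and 0 lower and 3, 1 and 2 higher, where quantile normalization gave 3, 5 and 0 lower and 2, 1 and 2 higher in cast legs and 0, 0 and 0 lower and 5, 4 and 7 higher in control legs.

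The 3′ to 5′ ratio of actin control probe sets and markers of other cells differed between groups as well. The log ratio of 3′ to 5′ actin control probe sets, which rises as RNA is shortened, had medians of -0.9, -0.29 and -0.63 in left legs at day 2, 7 and 14, against 0.14, 0.18 and 0.14 in right legs, -1.34, -1.26 and -1.08 in sham and -1.18 in naive muscle. In casting animals it was -0.7, -0.65 and -0.63 in cast legs, against -0.77, -0.43 and -0.29 in control legs, so that the medians of both legs lay above that of naive muscle. The same ratio of Gapdh control probe sets did not separate the tenotomy legs at day 2. That ratio lay between -0.333 and -0.212 in left legs and between -0.308 and -0.206 in right legs. Summed macrophage signal had medians of 1788, 3225 and 4269 in cast legs, against 2529, 2742 and 2694 in control legs. At day 2 of tenotomy the summed macrophage signal lay between 812.8 and 1714 in left legs and between 12140 and 15480 in right legs. The test called 12, 12 and 9 of the 12 macrophage markers higher in right legs than in naive muscle, where 41.3%, 39.5% and 34.3% of all genes were called. Tendon cell markers, summed over 6, had medians of 2599, 3569 and 3486 in left legs, against 5074, 8757 and 9347 in right legs. Fibroblast markers, also 6, had 9963, 13880 and 12150 in left legs, against 16990, 27140 and 24000 in right legs and 14710, 15090 and 13420 in sham. Macrophage signal had medians of 1359, 1420 and 1087 in left legs, against 1943, 1848 and 2000 in sham. The part of these cells, or of RNA quality, in the myosin differences was not tested.

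Myh3, the embryonic chain, was lower in the cast than in the uncast leg at all 3 days. The uncast leg was called higher than naive muscle at each day, and the cast leg at day 14 alone. It ran 26.33, 40.215 and 122.7 in cast legs at day 2, against 59.47, 93.35 and 157 in control legs. At day 7 it ran 30.38, 58.68 and 95.68 in cast legs, against 78.09, 175.4 and 1046 in control legs. At day 14 it ran 38.8, 134.1 and 154.9 in cast legs, against 99.62, 179.6 and 944.6 in control legs. The ranges touched at every day, but 9 of 9 pairs at day 2, 7 of 7 at day 7 and 6 of 9 at day 14 had the lower signal in the cast leg. Cast minus control was -1.07 ± 0.3 (adjusted p = 0.00441), -1.84 ± 0.34 (3.82e-05) and -0.93 ± 0.31 (0.0323).

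The widest gaps came from a few control legs with high signals. The largest gap within an animal was at day 7, with 95.68 in the cast and 1046 in the control leg, and another animal had 38.69 and 433.8. At day 14 the pair with the largest control signal had 143.7 and 944.6. Without the control leg at 1046 the day 7 difference was -1.52 (adjusted p = 0.00081), and without the one at 944.6 the day 14 difference was -0.66 and no longer called (0.151). Naive muscle ran 18.95, 38.71 and 61.24, and control legs were called higher than it at each day, 2.71-fold, 5.57-fold and 5.6-fold (adjusted p from limma of 0.000674, 4.25e-08 and 1.05e-08). Cast legs were not called at day 2 (0.37, 0.45) or day 7 (0.63, 0.203) and were 2.95-fold higher than naive muscle at day 14 (0.000149).

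Myh3 was not called between left and right legs, in either leg against sham or naive muscle, or in sham against naive muscle. It had 52.65, 40.1, 25.3, 47.02 and 41.45 in left legs at day 2, against 46.67, 31.05, 42.6, 60.77 and 30 in right legs and 40.09, 29.27 and 59.67 in sham. At day 7 its median was 31.51 in left legs, 32.69 in right legs and 41.99 in sham, where 1 array had 240.8. At day 14 the right legs had 42.14, 58.62, 119.1, 31.72 and 29.71, against 10.39, 28.855 and 50.57 (lowest, median, highest) in sham (0.82, adjusted p = 0.0976). These values overlapped throughout, and left minus right was -0.02, -0.38 and -0.5 (adjusted p of 0.977, 0.449 and 0.439).

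Myh8, the perinatal chain, was dim in most muscles and bright in 4 right legs at day 7. The 7 left legs of that day had 26.68, 23.47, 34.47, 25.32, 10.98, 34.33 and 29.96, and the right legs of the same animals had 290.4, 246.9, 189.7, 149.5, 37.34, 32.1 and 19.7. Sham muscles ran 9.06, 24.25 and 52.37 on that day, and naive muscle ran 12.95, 35.41 and 37.57. The right legs thus held 4 above and 3 within the range of the left, sham and naive muscles. Left minus right was -1.72 ± 0.32 (adjusted p = 6.47e-06), and right legs were 3.32-fold higher than sham (1.73 ± 0.34, 9.9e-06). Without the right leg at 290.4, left minus right was -1.45 (adjusted p = 0.000208) and right minus sham 1.47 (0.000216).

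At day 2 Myh8 was called higher in left than in right legs, at low signals and depending on single arrays. Myh8 had 16.15, 21.46, 36.75, 32.6 and 39.76 in left legs, against 12.31, 4.782, 13.99, 20.5 and 14.26 in right legs, near or below the brightness filter of 9.65 to 17.84. Left minus right was 0.97 ± 0.38 (adjusted p = 0.0352), a call lost in 5 of 10 cases of leaving out 1 array (adjusted p of at most 0.155). It was also lost at an added constant of 16. Right legs did not pass against sham (-0.84, 0.158), which had 25.94, 29.57 and 20.93. The leg difference at day 14 minus that at day 2 was -1.73 ± 0.54 (0.0294), a call lost in 5 of 20 cases of leaving out 1 array and in 2 of 13 other settings (adjusted p of at most 0.0797), with 9.468, 17.77, 24.89, 20.41 and 14.53 in left and 24.64, 32.53, 46.96, 35.85 and 20.71 in right legs at day 14 (-0.76, adjusted p = 0.156). Casting legs did not differ by the test at any day (0.35, -0.58 and 0.37, with adjusted p of 0.426, 0.303 and 0.431), though 2 of the 8 control legs at day 7 had 128.8 and 134, above every other casting array, and these were the control legs with Myh3 at 1046 and 433.8.

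A wider list of 23 immature and regenerating fibre genes, of which 21 were tested, did not follow Myh3 or Myh8 as a whole. Of all genes, 24.3%, 8.78% and 13.3% were called between casting legs and 36.8%, 33% and 23.2% between left and right legs. For right legs against sham the shares were 35.1%, 41.3% and 36%. Cast legs had 4, 2 and 4 higher and 4, 3 and 1 lower than control legs. Actc1, the cardiac alpha actin made in immature muscle, had 742.5 in cast legs at day 7, against 4082 in control legs (-2.52, adjusted p = 2.52e-09), the same direction as Myh3. Left legs had 2, 3 and 1 higher and 8, 7 and 6 lower than right legs, with Myog, a myogenic transcription factor, at 68.56 in left against 274.2 in right legs at day 2 (-1.95). Sln, sarcolipin, a small inhibitor of the calcium pump, had 38.87 in left legs at day 7, against 775.8 in right legs (-3.89), and 53.13 against 1242 at day 14. Right legs had 9, 5 and 4 of 21 above sham and 1, 5 and 4 below, and Mymk, a protein of myoblast fusion, had 29.65 in right legs at day 2, against 3.723 in sham (2.24). Markers of satellite cells and myoblasts, summed over 6, had medians of 799.2 in left and 1021 in right legs at day 2, against 702 in sham and 670.9 in naive muscle, and of 696.8 in left and 612.3 in right legs at day 7. Their part in the Myh8 difference was not tested.

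The leg differences of the 2 models were set against each other in the same fit. At day 2 the tenotomy difference exceeded the casting difference for 4 of 6 genes, where 35% of all genes were called. These were Myh7 (2.34 ± 0.49, adjusted p = 5.13e-05), Myh2 (1.32 ± 0.25, 7.43e-06), Myh4 (0.84 ± 0.28, 0.0128) and Myh1 (0.61 ± 0.21, 0.0145). With quantile normalization Myh4 was no longer called (0.12, adjusted p = 0.262) and Myh1 turned to -0.09. At day 7 it was 3 of 6 where 29.6% were called, higher for Myh2 (0.86, 0.00271) and Myh3 (1.46, 0.0154) and lower for Myh8 (-1.14, 0.044). The Myh8 call was kept in 5 of 14 other settings, over which the adjusted p ran between 0.00176 and 0.157, and that of Myh3 in 13 of 14 (at most 0.063). At day 14 it was 0 of 6, where 28.7% of all genes were called, and Myh8 (-1.13, 0.0653), Myh7 (1.08, 0.0986) and Myh3 (0.43, 0.602) are given by value. Over time, the casting leg difference gave 0 of 6 between day 14 and day 2 (14.3% of all genes) and the tenotomy leg difference 2 of 6, Myh7 and Myh8 (8.18%).

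Each group was also set against naive muscle. Cast legs had 3, 3 and 4 of 6 genes called (35.3%, 30.1% and 36.7% of all genes), and control legs of casting animals 3, 3 and 4 (27.9%, 23.1% and 27.5%). Left legs had 1, 1 and 1, each time Myh7 (18.5%, 17.8% and 18%), and right legs 5, 4 and 2 (41.3%, 39.5% and 34.3%). In right legs at day 2 all but Myh3 were lower than in naive muscle, Myh8 among them (-1.01, adjusted p = 0.0205), and at day 7 Myh8 was higher (1.55, 7.66e-05). These comparisons share the 7 naive arrays, and the naive animals are numbered apart from the casting and tenotomy animals.

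Genes that fold myosin, build the thick filament, degrade it or set fibre type were read as lists. Of all genes, 24.3%, 8.78% and 13.3% were called between casting legs and 36.8%, 33% and 23.2% between left and right legs. Of 13 tested folding and assembly factors, 0, 0 and 0 were higher and 6, 4 and 4 lower in cast than in control legs. Cryab, a small heat shock protein that binds desmin and titin, differed by -0.81 and Hsp90aa1, a chaperone, by -0.83 at day 2. Left legs had 8, 7 and 0 higher and 1, 1 and 2 lower than right legs, with Myom1, an M-line protein, at 0.88 and Hsp90aa1 at -1.15 at day 2. Of 12 tested turnover genes, 5, 3 and 1 were higher and 3, 1 and 1 lower in cast legs. The ubiquitin ligases of atrophy Fbxo32 and Trim63, the second of which marks myosin heavy chain for degradation, had 3860 and 4560 in cast legs at day 2, against 1422 and 2306 in control legs (1.45, adjusted p = 1.15e-09, and 0.93, 2.01e-09). Turnover genes gave 4, 2 and 2 higher and 5, 1 and 2 lower in left than in right legs.

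Of 26 tested regulators of fibre type, 4, 3 and 1 were higher and 6, 4 and 5 lower in cast than in control legs. The shares over all genes were 24.3%, 8.78% and 13.3% there and 36.8%, 33% and 23.2% between left and right legs. At day 2 the nuclear receptor Esrrg, which is active in oxidative fibres, differed by -1.3 (adjusted p = 4.78e-13) and Rcan1, an inhibitor of calcineurin whose transcription calcineurin raises, by -1.28 (4.29e-12). Hdac4, a repressor of MEF2 that rises with denervation, differed by 0.91 (1.74e-11). Left legs had 13, 14 and 8 of 26 higher and 2, 4 and 4 lower than right legs, with Sox6, a repressor of slow genes, at 0.94 (7.83e-14) and Maf, which in mice promotes the IIb programme, at 0.83 at day 2. The part of these regulators in the myosin differences was not tested.

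Other myosin heavy chains, those of heart, smooth muscle and non-muscle cells, gave 6 tested genes. Myh10, a non-muscle chain, had 144.4 in cast legs at day 2, against 394 in control legs (-1.47, adjusted p = 7.5e-15), and -0.94 at day 7. Myh9, the non-muscle chain of most cells including macrophages, was lower in left than in right legs at day 2 (-1.04) and day 7 (-0.9). Right legs had 2, 2 and 4 of 6 above sham and 0 below, where 35.1%, 41.3% and 36% of all genes were called. Myh7b, a sarcomeric chain close to Myh7, differed by 0.48 between left and right legs at day 2.

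Patterns over the 111 arrays were described by Pearson's r with each gene, without a test, since arrays share groups, animals and scaling. The fast chains went with each other, with r of 0.78 for Myh4 and Myh1, 0.817 for Myh4 and Myh2 and 0.864 for Myh1 and Myh2, and 0.857, 0.773 and 0.892 for their deviations from the group means. The slow and developmental chains went with none of these, with r between -0.448 and 0.164. Myh3 had 0.415 with Myh7 and 0.393 with Myh8, and 0.228 and 0.517 for the deviations from the group means. Myh7 and Myh8 had 0.152 with each other. The genes most like Myh4 were Atp2a1, the fast fibre calcium pump (0.996), Tnnc2, the fast troponin C (0.996), and Pvalb, the calcium buffer parvalbumin (0.995). The genes most like Myh1 were Ryr1, the calcium release channel (0.919), Neb (0.875) and Car3 (0.872), and those most like Myh2 were Mb, myoglobin (0.907), and the ATP synthase subunits Atp5b (0.888) and Atp5a1 (0.884).

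Myh7 was most like Tpm3 (0.956), Tnnc1 (0.952) and Tnni1 (0.947), all slow fibre genes. The genes most like Myh3 and Myh8 were picked over these same arrays. Their group differences below follow in part from that choice and are not separate evidence. Myh3 was most like Ldlrad3 (0.748), P3h2 (0.733) and Ift81 (0.724), and each of these was called higher in control legs of casting animals than in naive muscle at all 3 days, P3h2 by 0.92, 1.05 and 1.16. Myh8 was most like the imprinted genes Igf2 (0.618), Mest (0.609) and Peg3 (0.594). Mest was lower in left than in right legs at day 7 (-1.52, adjusted p = 5.63e-06) and higher in right legs than in sham (1.51, 1.21e-05), Peg3 was higher in right legs than in sham (0.63, 0.00113), and Igf2 was not called there (0.18, 0.43).

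The other probe sets of the same genes mostly moved with those used. For Myh4, 1458368_at gave -0.84, -0.85 and -0.89 for cast legs minus naive. For Myh1, 1427520_a_at gave -0.55, -0.61 and -0.58 there, and 0.20 for left legs minus sham at day 14, where the probe set used gave 0.45. Another, dim Myh1 probe set, 1452465_at, went the other way, with 0.31, 0.52 and 0.22 for cast legs minus naive and 0.75, 0.58 and 0.86 for cast minus control legs, where the probe set used gave differences near 0. The name of the Myh1 probe set used ends in x_at, Affymetrix's mark for probes that also match other transcripts, so that the 3 fast chains, which are close in sequence, may not be fully separated. A probe set listed for both Myh7 and Myh6, 1448554_s_at, gave -4.96, -3.33 and -1.59 for right legs minus sham and 2.11, 0.91 and 0.29 for left minus right. A second such probe set, 1448827_s_at, which is dim (above the 40th percentile on 80 of 111 arrays), gave smaller leg differences of 0.63, 0.37 and -0.15, and -2.44, -2.51 and -1.78 for right legs minus sham.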

How the data were processed

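Trizol and RNeasy columns gave the RNA, and 6 ug per gastrocnemius was labelled, per the labels' protocols. The deposited values are linear signal intensities from MAS5 and GCOS, per the submitters' processing notes, with versions and scaling target not given in the sources used here. Trimmed means (2% at each end) lay between 99.955 and 99.965, so that the deposited arrays had been scaled to a common mean. Medians of the 111 arrays lay between 16.14 and 26.36, and the number of arrays limits precision.

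Signals were analysed as log2(signal + 3.982), the constant being the 20th percentile of all values, and fold changes of dim genes are understated on this scale. Of 45101 probe sets, 34958 listed a single gene, 932 several and 9211 none, and 34754 of the single-gene ones were found by gene identifier in the RefSeq annotation. Genes above an array's 40th percentile (9.65 to 17.84) in at least 5 arrays were tested, by the probe set with the highest mean. A limma model (version 3.58.1, R 4.3.3, with release 1.17.8 of data.table) held a mean per group (16 groups, all arrays), random animal effects (consensus correlation 0.0965) and eBayes with an intensity trend, and p-values were adjusted by Benjamini-Hochberg over 16029 genes within each of 32 comparisons. Nothing in the sources says how animals were housed or pooled, and p-values measure the spread between these samples. The fit was tested on simulated data. Figures used Python 3.11.15, numpy 2.4.6, pandas 2.3.3 and matplotlib 3.10.9.

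Animal numbers in the labels pair legs of the same animal. Residuals correlated at 0.0634 on average over 41 such pairs, 13 of them over 0.1, and at -0.0085 over 285 pairs from different animals. Numbers in the titles do not pair legs (0.0185 over 42 pairs). For sham at day 2 the group came from the title. The 6 genes, the gene and marker lists and the rule for other named genes (the 3 genes most correlated with each member, and up to 3 list genes with the largest called difference in each leg comparison) were chosen with earlier results of these data known. Listed genes that did not pass the brightness filter are left out of the counts, and some items are not reported here. Alternatives changed the added constant, floor, filter, normalization, choice of probe set, array weights, block, trend and samples.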

Additional observations from a re-analysis of the deposited data

Results flagged for a closer look

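Of the 90 sets of arrays in which a single array far from the rest was looked for (6 genes in 15 groups), 12 held one by Dixon's criterion at 95%, where chance gives about 1 in 20. In control legs of casting animals at day 14, the same array was highest for Myh4 (17000, the others 5656 to 8431), Myh1 (14700, the others 5984 to 8350) and Myh2 (14000, the others 5741 to 7916). Control legs at day 7 held a Myh2 signal of 14000, with the others at 6007 to 8800. In left legs of tenotomy animals, Myh4 had 16500 at day 14 (the others 12600 to 13100), Myh1 had 7690 at day 7 (11300 to 14100), Myh2 had 6884 at day 2 (11400 to 13900) and Myh8 had 10.98 at day 7 (23.47 to 34.47). Right legs at day 14 held a Myh1 signal of 8891, with the others at 10500 to 10900. Myh7 had 1070 in a control leg of casting animals at day 2, with the others at 2877 to 6068. Myh8 had 72.47 in a control leg of casting animals at day 2, with the others at 14.44 to 32.69. Myh3 had 240.8 in a sham muscle at day 7, with the others at 37.52 to 43.99.

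The leg difference in tenotomy animals minus that in casting animals passed limma's test of the difference itself at day 2 for Myh4 (0.84), Myh1 (0.61), Myh2 (1.32) and Myh7 (2.34). At day 7 it passed for Myh2 (0.86), Myh3 (1.46) and Myh8 (-1.14), of which the Myh8 call was kept in 5 of 14 other settings. The tenotomy leg difference at day 14 minus that at day 2 passed for Myh7 (-2.13) and Myh8 (-1.73), kept in 12 and 11 of 13 other settings. Their causes were not tested.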

How the results depend on the processing

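The deposited scale was the choice that mattered most. Quantile normalization turned Myh1 in casting legs at day 2 (0.223), in right legs minus sham at day 7 (0.394) and in the difference between models at day 2 (-0.091). It also turned Myh1 and Myh2 against naive muscle. Cast legs then had 0.499, 0.508 and 0.418 for Myh1 over the 3 days and 0.028 and 0.068 for Myh2 (day 2 and 14), control legs of casting animals had 0.276, 0.423 and 0.456 for Myh1 and 0.096, 0.104 and 0.062 for Myh2, and right legs had 0.022, 0.351 and 0.321 for Myh1. Under it calls were lost for Myh1 in left minus right legs at day 2 (0.133) and day 7 (0.035), and in right legs minus sham for Myh4 (-0.042) and Myh1 (-0.006) at day 2 and Myh2 (-0.19) at day 7. Calls were gained for Myh4 in casting legs at day 2 (-0.145) and for Myh1 minus sham in left legs at day 7 (0.428) and right legs at day 14 (0.433). Sign changes in results that were not called are not counted here.

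Myh7 in casting legs at day 14 lost its call at an added constant of 1 (-0.835), with a floor (-0.835), with no filter, averaged probe sets, no trend, no replicate block or the animal as a fixed replicate block (-0.834 each), and, in settings chosen after seeing the data, without 12 arrays with a raised low end (-0.728), without 7 casting arrays with a high bright end (-0.813) and without a control leg (-0.811). Without the replicate block, Myh3 at day 14 missed the threshold (-0.927, adjusted p = 0.0501). With only the groups compared, Myh4 (0.466) at day 2 and Myh8 (-0.757) at day 14 passed in left minus right legs, Myh7 passed in casting legs at day 7 (-0.414) and in left legs minus sham at day 14 (-0.843), and Myh3 in casting legs at day 14 did not (-0.927). An added constant of 16 gave 0.629 for Myh8 in left minus right legs at day 2, no longer called. Averaged probe sets gave 0.621 for Myh4 in left minus right legs at day 2 and -0.393 for Myh1 in right legs minus sham at day 7, both called, and 0.349 for Myh1 in left legs minus sham at day 14, not called. Array weights gave 0.406 for that Myh1 difference, not called, and -0.98 for Myh7, called. Without the raised low end, Myh1 in left minus right legs at day 7 (0.346) was lost and Myh3 in right legs minus sham at day 14 (1.047) gained. Causes were not tested.

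Leaving out 1 array at a time in groups of 3 to 5 gave -0.976 to -0.646 for Myh4 and -0.679 to -0.443 for Myh1 in right legs minus sham at day 2, both lost without sham replicate 1. Myh7 in right legs minus sham at day 14 gave -1.32 to -0.931, lost without right-leg replicate 3 or 4, and in left legs -1.166 to -0.578, called without left-leg replicate 5. Myh8 in left minus right legs at day 2 gave 0.738 to 1.144, lost in 5 of 10 cases. Myh1 in left legs minus sham at day 14 gave 0.428 to 0.471, lost in 3 of 5. Without the highest Myh3 control leg, casting legs at day 14 gave -0.659, and without the highest Myh8 right leg at day 7 Myh1 in left minus right legs gave 0.368 (0.0518), the Myh8 difference between models -0.873 (0.144), and without the highest Myh3 control leg at day 7 the Myh3 difference between models 1.137 (0.0567), none of them called. Counts over all genes moved by over 1.5 times for sham minus naive at day 2 (1 to 5 genes against 0), for casting legs at day 7 (2445 with array weights and 823 without the raised low end, against 1408) and for left legs minus sham at day 2 (1058 with only the groups compared and 812 without sham replicate 2, against 1611). Quantile normalization lowered the share of called genes that were higher in right legs at day 14, against sham to 47.3% (57.4% on the deposited scale) and against naive muscle to 47.7% (58.6%).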
